A study of Mus musculus with 22 samples.

Results

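The 10 genes described here are keratins and genes of injured or transitional lung epithelium, listed by symbol and found among the 21793 protein-coding genes of both count tables. Krt7, Krt8, Krt18 and Krt19 encode simple keratins, Krt5, Krt14 and Trp63 mark basal cells of the airway, and Sfn, Cdkn1a and Areg are genes induced by injury and stress. All 10 were matched to an Ensembl identifier. They were followed in libraries of sorted live lung epithelial cells (ECs, CD45-CD31-EpCAM+) from C57BL/6 wildtype (WT) mice and from mice labelled AhR-/- or CYP1B1-/-. Both lines carry a constitutive deletion in the whole animal and were backcrossed to C57BL/6, and the mice were adults. AhR is a receptor for environmental and metabolic aromatic ligands, and CYP1B1 is a cytochrome P450 enzyme whose gene AhR can induce. The mice were either untreated (steady state; 4 WT, 3 AhR-/- and 3 CYP1B1-/- libraries) or given extract of the house dust mite Dermatophagoides farinae (HDM) intranasally, in a sensitization followed by daily challenges (4 libraries of each genotype). The steady-state and HDM libraries stand in tables named as separate runs, so state and run cannot be told apart. The labels do not tie a library to an animal, so p-values measure only the spread between these libraries.

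Keratins form the intermediate filaments of epithelia as obligate pairs of a type I and a type II chain. In simple epithelia the main pair is Krt8 (type II) with Krt18 (type I), joined by Krt7 (type II) and Krt19 (type I), whereas Krt5 pairs with Krt14 in basal cells under the control of p63, the product of Trp63. In the injured alveolus, type 2 cells can pass through a transitional state, known for high Krt8, Sfn (the 14-3-3 sigma protein) and Cdkn1a (the cell cycle inhibitor p21, a p53 target), on their way to type 1 cells. Areg encodes amphiregulin, a ligand of the EGF receptor that acts in tissue repair.

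The 6 keratins lie in the keratin clusters. Krt7 (ENSMUSG00000023039, GRCm38 chr15:101411043-101430313), Krt5 (ENSMUSG00000061527, chr15:101707070-101712898), Krt8 (ENSMUSG00000049382, chr15:101996698-102004482) and Krt18 (ENSMUSG00000023043, chr15:102028180-102032027) share a region of chromosome 15, and Krt8 and Krt18 are separated by 23697 bases. Krt19 (ENSMUSG00000020911, chr11:100140810-100148665) and Krt14 (ENSMUSG00000045545, chr11:100203162-100207548) share a region of chromosome 11. Trp63 (ENSMUSG00000022510) is at chr16:25683763-25892102, Sfn (ENSMUSG00000047281) at chr4:133600556-133602168, Cdkn1a (ENSMUSG00000023067) at chr17:29090976-29100727 and Areg (ENSMUSG00000029378) at chr5:91139599-91148432. Promoter sequences from RefSeq (GRCm38.p6) matched 8 of the 10 members, all but Krt19 and Trp63. The 250 bases before the start are shown for Krt18 and Krt8, neighbours whose products form a pair but whose counts differed in the libraries labelled AhR-/- after HDM, and for a start of Cdkn1a, the other gene that differed there. Capitals mark the letters GCGTG, the core of the element bound by AhR with its partner, searched on both strands.
Krt18, chr15:102027966-102028215, plus strand: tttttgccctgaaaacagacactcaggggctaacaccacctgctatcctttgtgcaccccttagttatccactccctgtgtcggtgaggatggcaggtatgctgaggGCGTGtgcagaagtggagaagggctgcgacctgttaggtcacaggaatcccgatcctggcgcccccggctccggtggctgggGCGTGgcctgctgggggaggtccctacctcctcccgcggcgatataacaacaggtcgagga
Krt8, chr15:102004343-102004592, minus strand: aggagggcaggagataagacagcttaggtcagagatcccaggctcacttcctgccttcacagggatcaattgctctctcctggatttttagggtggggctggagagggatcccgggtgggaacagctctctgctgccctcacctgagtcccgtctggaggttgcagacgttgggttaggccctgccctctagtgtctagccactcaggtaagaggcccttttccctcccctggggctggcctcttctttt
Cdkn1a, chr17:29093519-29093768, plus strand: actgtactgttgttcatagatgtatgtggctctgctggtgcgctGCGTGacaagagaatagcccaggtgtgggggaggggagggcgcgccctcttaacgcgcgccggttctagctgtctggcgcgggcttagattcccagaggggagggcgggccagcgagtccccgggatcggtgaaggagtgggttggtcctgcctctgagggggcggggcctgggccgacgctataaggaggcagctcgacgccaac
The Krt18 window held GCGTG at 143 and at 61 bases before the start, this Cdkn1a window held it at 206 bases, and neither the Krt8 window nor that of the other Cdkn1a start (chr17:29090729-29090978) held it. Among the other members it was found for Krt14, at 61 bases. The letters are common, in 28.2% of 32851 mouse windows of the same length. TATAAA, the TATA box, was found for Areg at 31 bases before the start and in 12.4% of all windows. These matches are letters in a window, and binding was not measured.

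The 22 libraries held 9654825 to 17878442 counts, of which the predicted gene Gm10800 took from 0.00819% to 71.9%, and 1180756 to 16447855 protein-coding counts remained without such dominant predicted genes. A count of 3 corresponded to 0.107 to 1.36 CPM (counts relative to library size, scaled by TMM over all 22 libraries), which sets the level below which a gene could not be measured, for counting error only. Neither target was lower under its own label. Ahr was at 15.5 to 20.1 CPM at steady state under the AhR-/- label and at 6.38 to 12.3 in WT, and after HDM at 12.8 to 25.5 against 9.62 to 20.0. Cyp1b1 was at 3.62 to 13.5 CPM in all 7 libraries labelled CYP1B1-/- and at 0.369 to 2.31 in all others. Counts summed over a whole gene do not test a deletion of part of it, so the genotypes are those of the labels, and every direction between genotypes below rests on them. All 10 steady-state libraries carried reads of 4 Y-linked genes (66.6 to 250 CPM summed), whereas 10 of the 12 HDM libraries had at most 0.258. The exceptions were replicates 3 and 4 labelled AhR-/- after HDM (172 and 191), and the main results that rest on these are given with and without them. In WT and CYP1B1-/-, HDM against steady state therefore also compares libraries with hardly any Y-linked reads and libraries with many. The same holds for AhR-/- without replicates 3 and 4. State and the presence of Y-linked reads cannot be told apart in these comparisons. Steady-state replicate 2 labelled CYP1B1-/- also stood apart, with 66.6 CPM of Y-linked genes and the lowest alveolar type 1 sum at steady state.

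The sort selects epithelium, and its defining genes were present throughout, with Epcam at 68.2 to 312 CPM and Cdh1 at 192 to 976. At steady state, 8 alveolar type 1 markers summed to 19469 to 32726 CPM, with Ager at 7036 to 17157, and 16 hematopoietic markers to 229 to 372, of which Csf1r alone was 197 to 280. Without Csf1r, chosen after the values were seen, the other 15 summed to 6.03 to 175 CPM at steady state and to 77.4 to 3363 after HDM. After HDM the type 1 sum was 853 to 5590 in WT, 4103 to 22749 in the libraries labelled AhR-/- and 605 to 4983 in those labelled CYP1B1-/-. The hematopoietic sum was 1136 to 3557, 187 to 792 and 191 to 3516 in the same order, although the gate excludes CD45+ cells, and Ptprc, which encodes CD45, reached 637, 161 and 669. No marker on either list was at 0 in all libraries of a group. The sum of 8 type 2 markers was 846 to 5437 at steady state and 4647 to 73344 after HDM. In bulk libraries, fewer cells of a type and less RNA per cell cannot be told apart.

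**Figure D1:**
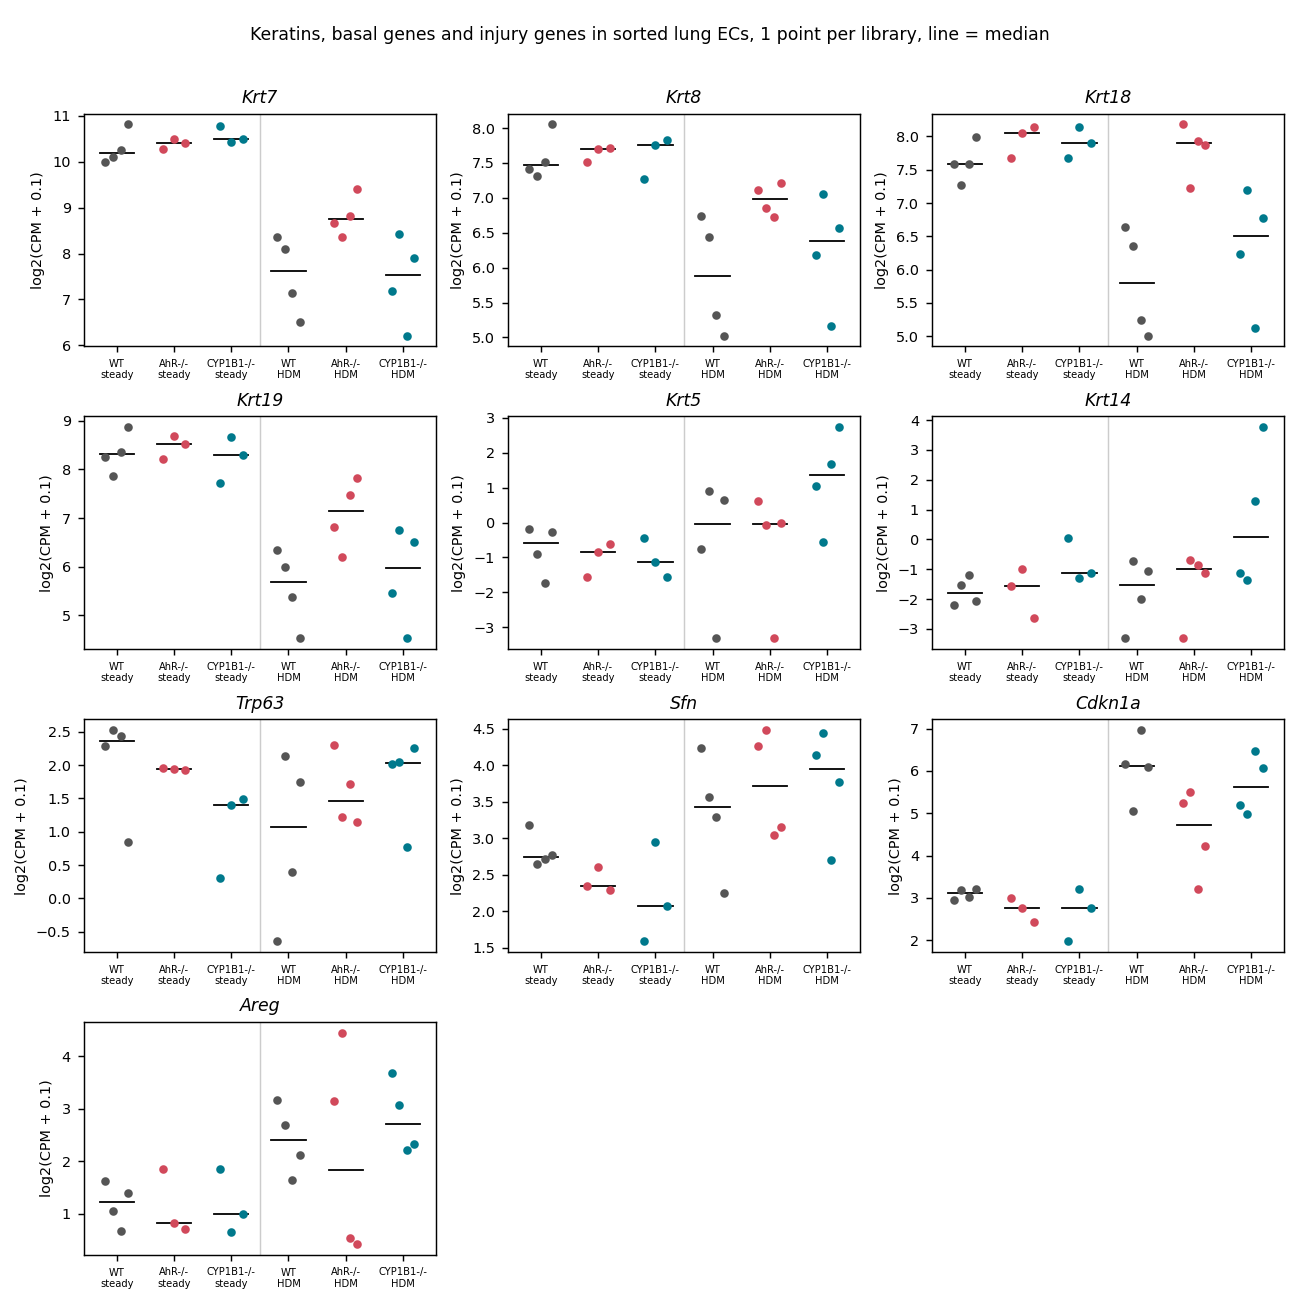
Expression of the 10 genes in the 22 libraries, as log2(CPM + 0.1) on the vertical axis, by genotype and state on the horizontal axis, with a point per library and a line at the group median. The 4 simple keratins were lower in every WT and CYP1B1-/- HDM library than in any steady-state library of the same genotype, and Cdkn1a was higher in every HDM library than in the steady-state libraries of its genotype.

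At steady state the simple keratins were abundant and the basal keratins were near the limit of measurement. Per kilobase of exon, the group means of WT libraries were 183 CPM for Krt7, 180 for Krt19, 139 for Krt18 and 99.3 for Krt8. The gap between Krt7 and Krt19 depends on the transcripts taken, since per kilobase of the principal transcript Krt7 was at 315 CPM, against 212 for Krt19. Sfn was at 4.39, Cdkn1a at 2.38 and Areg at 1.85 CPM per kilobase, while Trp63 was at 0.522, Krt5 at 0.244 and Krt14 at 0.120. Krt5 was counted 3 to 16 times and Krt14 1 to 13 times per steady-state library, and neither passed the filter on low counts there. Krt8 levels are uncertain, because 29.7% of its 50-base stretches also occur in the pseudogene Krt8-ps and in Gm36026, and Krt8-ps was counted at 29.7% to 45.0% of the Krt8 count in the 22 libraries. Shared stretches also touched Sfn (15.0%), Krt14 (13.9%, with Krt16 and Krt17), Krt5 (12.2%, with Krt6a) and Cdkn1a (8.49%). Exons of Krt5, Krt8, Krt7 and Cdkn1a overlap a gene on the other strand over 1.09% to 7.68% of their length, and the strand setting of the counting was not given in the sources used here.

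No member passed the test between genotypes at steady state. Of 8 members tested, 0 had an adjusted p of at most 0.05 by the quasi-likelihood test of edgeR, with Benjamini-Hochberg adjustment over 15547 genes, in the libraries labelled AhR-/- against WT, where 0% of all genes passed (263 had an unadjusted p under 0.05). In those labelled CYP1B1-/- against WT, 0 of 8 members and 0.0129% of all genes passed, and between the knockouts 0 of 8 and 0.00643%. Log2 fold changes of the members ranged from -0.47 to 0.31 for AhR-/-, with standard errors (SE) of 0.18 to 0.42, and from -1.12 to 0.21 for CYP1B1-/-. Trp63 gave the lowest of these values. It was at 4.77, 5.68, 5.35 and 1.70 CPM in the WT libraries, at 3.77, 3.73 and 3.69 in those labelled AhR-/- and at 1.13, 2.54 and 2.71 in those labelled CYP1B1-/-. WT replicate 4 fell among the CYP1B1-/- values, and the difference from WT of -1.12 (SE 0.42) had an unadjusted p of 0.0210 and an adjusted p of 0.822 in the edgeR test.

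After HDM, the simple keratins of WT ECs fell. Krt7 was at 1021, 1107, 1218 and 1810 CPM at steady state and at 327, 274, 140 and 90.8 after HDM. Krt19 was at 305, 234, 329 and 468 CPM against 81.4, 63.7, 41.2 and 22.9. Krt8, like Krt7 a type II chain, was at 170, 159, 183 and 266 CPM against 107, 86.8, 39.9 and 32.5. Its partner Krt18 was at 193, 154, 193 and 255 CPM against 100, 81.4, 37.9 and 32.1. No HDM library reached a steady-state one for any of these genes. The log2 fold changes were -2.63 for Krt7, -2.68 for Krt19, -1.55 for Krt8 and -1.66 for Krt18 (SE 0.37 to 0.47), with adjusted p = 7.94e-05, 9.63e-05, 0.00198 and 0.00162 (edgeR over the 22 libraries and 16639 genes). Within WT after HDM, the type 1 marker sums of replicates 1 to 4 were 5590, 5502, 2569 and 853 CPM, the same order as all 4 keratins.

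Cdkn1a moved the other way. It was at 7.58, 9.01, 8.06 and 9.16 CPM in the WT libraries at steady state and at 71.3, 33.0, 125 and 68.1 after HDM, a fold of 8.79 (log2 3.14, SE 0.45, edgeR adjusted p = 1.8e-05). Every HDM library was above every steady-state one. The summed hematopoietic markers of the same HDM libraries were 2831, 1136, 3557 and 2259 CPM, lowest and highest where Cdkn1a was, and their part in the rise was not tested beyond a fit with the mean hematopoietic marker level as a covariate. In that fit the log2 fold change of Cdkn1a was 1.87 and those of Krt7, Krt8, Krt18 and Krt19 were -1.69, -0.77, -0.88 and -1.41, and none passed (adjusted p 0.161 to 0.540). The marker sums of the WT states did not overlap (229 to 372 CPM against 1136 to 3557).

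The other injury genes were less even. Sfn in WT was at 8.95, 6.17, 6.50 and 6.72 CPM at steady state and at 18.7, 11.7, 9.74 and 4.68 after HDM, so that 1 HDM library lay below all steady-state libraries (log2 0.66, SE 0.41, edgeR adjusted p = 0.211). Areg was at 2.98, 1.98, 1.49 and 2.53 CPM against 8.88, 6.34, 3.04 and 4.23, without overlap, yet its log2 fold change of 1.33 (SE 0.62) had an adjusted p of 0.0941 in the edgeR test. It did pass with the replicate block (1.20, adjusted p = 0.0465) and limma voom (1.12, adjusted p = 0.0466). With the hematopoietic covariate it was -0.31. In WT, 5 of 10 members passed, 1 higher and 4 lower, and 38.4% of all tested genes passed (19.0% higher, 19.4% lower).

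In the libraries labelled CYP1B1-/-, the same comparison called 8 of 10 members, 4 higher and 4 lower, against 33.4% of all genes (15.5% higher, 17.9% lower). Krt7 was at 1756, 1383 and 1438 CPM at steady state and at 145, 343, 74.0 and 239 after HDM, and fell by 2.93 in log2 units (SE 0.47, edgeR adjusted p = 6.87e-05). Krt19 fell by 2.23, Krt18 by 1.41 and Krt8 by 1.25, with edgeR adjusted p = 0.000829, 0.00926 and 0.0155. Krt8 did not pass without HDM replicate 1 or 3 or steady-state replicate 3 or 4 (adjusted p up to 0.0744), nor Krt18 without HDM replicate 1 (0.0516). Cdkn1a was at 3.83, 9.13 and 6.72 CPM at steady state and at 36.3, 31.7, 88.4 and 67.2 after HDM, a fold of 8.53 (log2 3.09, SE 0.51, edgeR adjusted p = 8.36e-05). Its 2 higher HDM libraries were those with hematopoietic sums of 3516 and 2813 CPM, against 1079 and 191 in the others. Without Csf1r the sums of replicates 1 to 4 were 1034, 149, 3308 and 2682 CPM, all above the 8.37 to 38.3 of the steady-state libraries. With the hematopoietic covariate none of the 8 members passed. Krt7 was then at -2.09 (adjusted p = 0.0589), Cdkn1a at 1.72 (0.206), Sfn at 1.33 (0.340) and Krt5 at 1.91 (0.551), and the other 4 were between -0.96 and 1.04 (adjusted p 0.516 to 0.900).

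The basal keratins passed in this genotype and not in the others, and the Krt14 call rests on a pair of libraries. Krt5 was counted 9, 7 and 4 times at steady state (0.638, 0.355 and 0.236 CPM) and 11, 2, 61 and 112 times after HDM (1.98, 0.576, 3.07 and 6.56 CPM), with a log2 fold change of 2.96 (SE 0.85, edgeR adjusted p = 0.00850). Krt14 was counted 13, 6 and 6 times at steady state and 2, 1, 46 and 231 times after HDM (0.361, 0.288, 2.31 and 13.5 CPM), with 3.05 (SE 1.09, edgeR adjusted p = 0.0331). Replicates 3 and 4 were high for both genes, while replicates 1 and 2 overlapped the steady-state libraries for Krt14. Krt5 kept its call without each single library in turn (2.28 to 3.56, adjusted p up to 0.0484), the lowest value being that without HDM replicate 4. Without either of replicates 3 and 4, Krt14 no longer passed the count filter. Trp63 did not pass (0.72, SE 0.55, edgeR adjusted p = 0.370). The difference of the change from that in WT, the interaction term, was 2.24 for Krt5 (SE 1.11) and 2.99 for Krt14 (SE 1.62), with an adjusted p of 1 for both. In the other genotypes, Krt5 reached at most 1.78 CPM and Krt14 at most 0.515 after HDM. Where a library had 0 counts of Krt5, as in WT replicate 3 and in replicate 3 labelled AhR-/-, up to 0.457 and 1.36 CPM remain possible at that depth.

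Sfn rose in the libraries labelled CYP1B1-/-, from 2.91, 7.61 and 4.12 CPM to 17.5, 21.6, 6.44 and 13.5 (log2 1.56, SE 0.46, edgeR adjusted p = 0.0102), with HDM replicate 3 inside the steady-state range. Without steady-state replicate 4 its adjusted p was 0.0517, and Krt14 did not pass without steady-state replicate 3 or 4 (up to 0.126). Areg was at 3.54, 1.47 and 1.89 CPM against 12.8, 8.36, 4.53 and 4.92, with no overlap, and its log2 fold change of 1.71 (SE 0.69) had an adjusted p of 0.0599 in edgeR. Areg did pass there with the replicate block (1.53, adjusted p = 0.0259), DESeq2 (0.0180), RLE scaling (0.0439), the likelihood ratio test (0.0379) and limma voom (0.00179), and with the hematopoietic covariate it was at 0.22 (adjusted p = 0.960). For both genes the higher HDM libraries were replicates 1 and 2, those with the lower Cdkn1a and hematopoietic values.

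**Figure D2:**
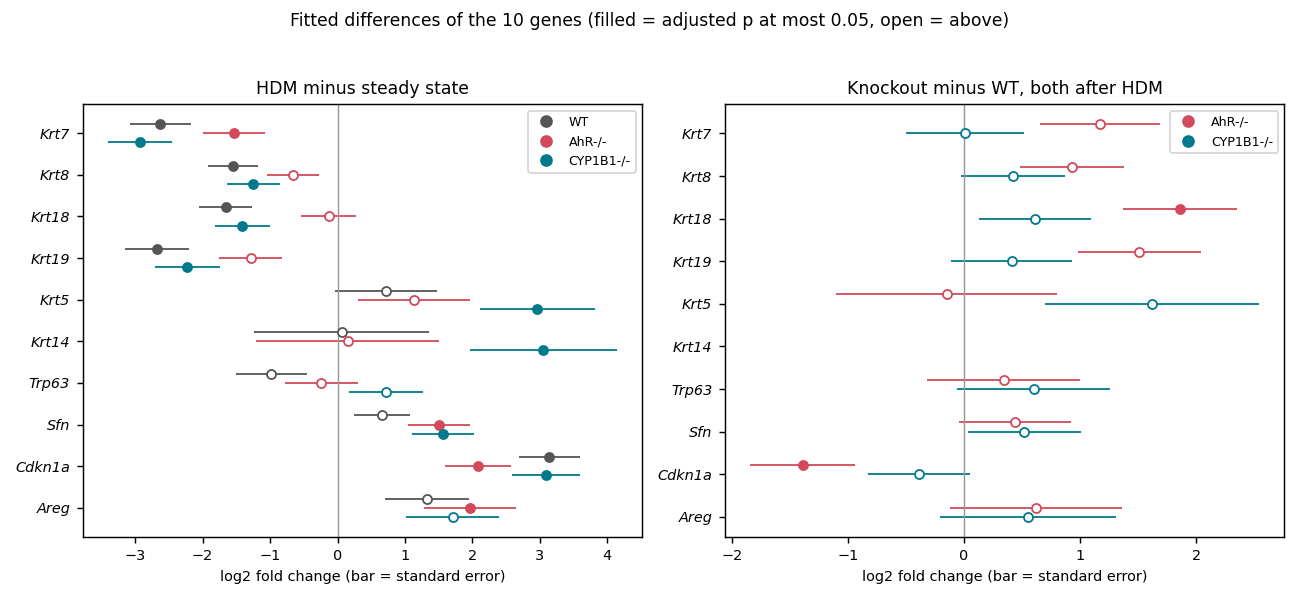
Fitted log2 fold changes of the 10 genes (horizontal axis, bars of 1 standard error), HDM against steady state in each genotype on the left and knockout against WT after HDM on the right. Filled points passed an adjusted p of 0.05 and open points did not, and Krt14 was not tested on the right. The Krt18 point of AhR-/- lies at -0.13 on the left and at 1.86 on the right.

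In the libraries labelled AhR-/-, 4 of 10 members passed, 3 higher and 1 lower, against 20.6% of all genes (10.6% higher, 10.1% lower). Krt7 was at 1242, 1440 and 1370 CPM at steady state and at 404, 328, 454 and 675 after HDM, and fell by 1.54 in log2 units (SE 0.46, edgeR adjusted p = 0.0200). Krt18 was at 205, 265 and 281 CPM against 291, 150, 243 and 233. Its groups overlapped, and the change was -0.13 (log2, SE 0.41, edgeR adjusted p = 0.862). Krt8 was at 183, 207 and 210 CPM against 138, 116, 106 and 148, without overlap, with -0.66 (SE 0.39, edgeR adjusted p = 0.242). Krt19 was at 296, 413 and 368 CPM against 113, 73.3, 178 and 225, with -1.29 (SE 0.47, edgeR adjusted p = 0.0542). Without replicates 3 and 4, those with Y-linked reads, Krt19 passed at -1.88 (adjusted p = 0.0200) and Krt7 remained past the threshold at -1.81 (adjusted p = 0.0264). Krt7 did not pass without HDM replicate 1 or 2 or steady-state replicate 3 or 4 (adjusted p up to 0.0682). With the hematopoietic covariate Krt7 was at -0.92 and did not pass (edgeR adjusted p = 0.377).

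All 3 injury genes passed in this genotype, Areg narrowly. Cdkn1a was at 7.91, 6.72 and 5.29 CPM at steady state and at 37.5, 45.2, 9.10 and 18.6 after HDM, a fold of 4.23 (log2 2.08, SE 0.49, edgeR adjusted p = 0.00532). Sfn was at 4.97, 5.97 and 4.80 CPM against 19.1, 22.3, 8.19 and 8.84 (log2 1.51, SE 0.46, edgeR adjusted p = 0.0221). Areg was at 3.53, 1.67 and 1.54 CPM against 8.74, 21.7, 1.36 and 1.24 (log2 1.96, SE 0.68, edgeR adjusted p = 0.0458). Replicates 3 and 4 were the low ones for all 3 genes. Their Areg values, the lowest of the genotype, rest on 3 and 7 counts. A count of 3 corresponded to 1.36 and 0.53 CPM there, so their place below the steady-state values is uncertain. Without replicates 3 and 4 the log2 fold changes were 2.71 for Cdkn1a, 2.05 for Sfn and 2.83 for Areg, all past the threshold. Without HDM replicate 1 or 2, or any steady-state replicate, Areg and Sfn did not pass. In these omissions Sfn was at 1.32 to 1.61 (adjusted p up to 0.0927), whereas Areg was at 0.98 without HDM replicate 2 (adjusted p = 0.292) and at 1.75 to 2.44 in the others. Areg also did not pass with the replicate block (1.37, adjusted p = 0.0809), with limma voom (0.33, adjusted p = 0.729) or without the filter (2.03, adjusted p = 0.0543). The hematopoietic sums without Csf1r were 623, 701, 118 and 77.4 CPM in these 4 libraries and 8.49 to 27.7 at steady state. With the hematopoietic covariate Cdkn1a, Sfn and Areg were at 1.13, 1.33 and 0.54, and none passed (adjusted p = 0.298, 0.236 and 0.792).

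Between genotypes after HDM, 2 of 9 members tested passed in the libraries labelled AhR-/- against WT, 1 higher and 1 lower, and 22.1% of all 14161 genes passed (9.22% higher, 12.9% lower), a share near that of the members. Krt18 was higher, by 1.86 in log2 units (a fold of 3.63, SE 0.49, edgeR adjusted p = 0.0281), and every library labelled AhR-/- was above every WT library. Cdkn1a was lower (log2 -1.39, SE 0.45, edgeR adjusted p = 0.0439), with overlap between 9.10 to 45.2 and 33.0 to 125 CPM. The other simple keratins gave 1.51 for Krt19 (SE 0.53, edgeR adjusted p = 0.0575), 1.17 for Krt7 (SE 0.52, edgeR adjusted p = 0.115) and 0.93 for Krt8 (SE 0.45, edgeR adjusted p = 0.149) in the same edgeR fit. Krt19 did pass with DESeq2 (adjusted p = 0.0152), limma voom (0.00122), the likelihood ratio test (0.0246), a fit of these 2 groups alone (0.0339) and without replicate 2 labelled AhR-/- (0.0344), and Krt7 with DESeq2 (0.0482) and limma voom (0.00397). With the hematopoietic covariate Krt19 was at 0.34 and Krt7 at 0.26 (adjusted p 0.787 and 0.839). The calls of Krt18 and Cdkn1a are sensitive to single libraries, while the values stayed at 1.66 to 2.11 and -1.74 to -1.04 without each in turn. Neither passed without replicate 1, 3 or 4 of either genotype (adjusted p up to 0.0921 for Krt18 and 0.164 for Cdkn1a), where the calls over all genes fell from 3129 to 885 without WT replicate 1 and to 0 in the other 5 omissions. They also did not pass with the replicate number as a block (Krt18 2.08, adjusted p = 0.0580, and Cdkn1a -1.32, adjusted p = 0.108), or with the hematopoietic covariate (1.16, adjusted p = 0.453, and -0.48, adjusted p = 0.589). Cdkn1a further did not pass in edgeR without the filter (-1.38, adjusted p = 0.085) or without dominant predicted genes (-1.37, adjusted p = 0.0502).

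Omitting replicates 3 and 4, which carry Y-linked reads, moved the members unequally. Krt18 was then at 1.76 (adjusted p = 0.202), while Krt7 was at 0.77, Krt19 at 0.79 and Cdkn1a at -0.86 (adjusted p 0.303 to 0.491). Alveolar type 1 markers summed to 17670 and 22749 CPM in these libraries, near the 19469 to 32726 of the steady state, and to 11183 and 4103 in replicates 1 and 2. Krt7 followed the same order (454 and 675 CPM in replicates 3 and 4, against 404 and 328 in replicates 1 and 2), as did Krt19, whereas Krt18 was highest in replicate 1. Club cell markers summed to 9348, 7735, 3551 and 1995 CPM in replicates 1 to 4 labelled AhR-/- and to 268 to 2073 in WT after HDM (2 of 6 markers called higher, median log2 difference 2.2), and were likewise highest in replicate 1. Ciliated cell markers summed to 139 to 207 CPM against 61.4 to 118 (1 of 8 called higher, median 1.35), without overlap. Most of this sum was Tppp3, at 73.7 to 166 CPM against 45.7 to 101, with overlap. The ciliated median was similar, 1.33, in CYP1B1-/- against WT after HDM, where 0 of 8 were called higher. The part of these markers in the differences was not tested.

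**Figure D3:**
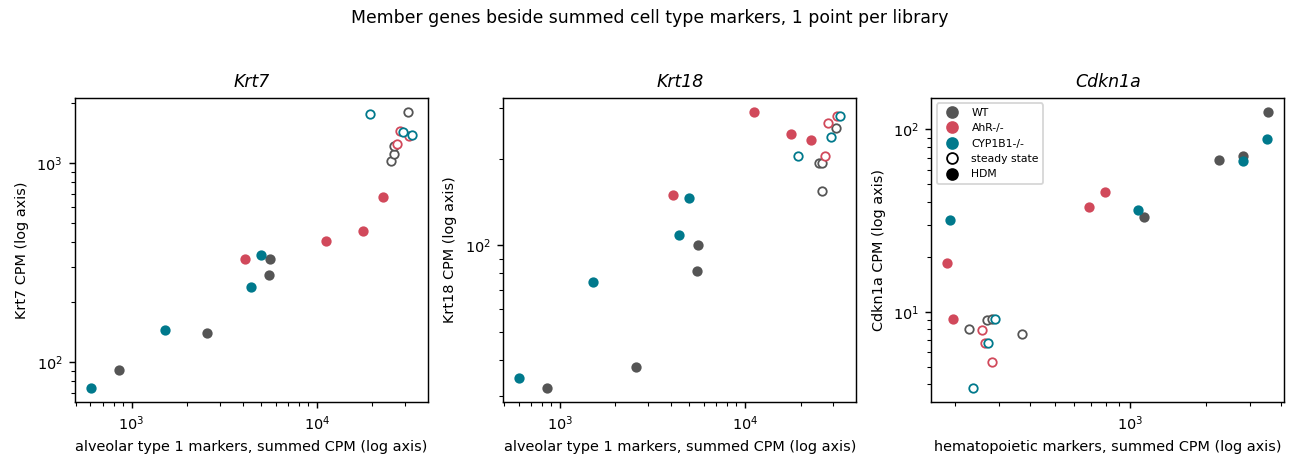
Krt7 and Krt18 against the summed alveolar type 1 markers, and Cdkn1a against the summed hematopoietic markers, all in CPM on log axes, with a point per library (open at steady state, filled after HDM, coloured by genotype). At a type 1 sum of 4103 the AhR-/- library had 150 CPM of Krt18, CYP1B1-/- libraries at 4423 and 4983 had 109 and 146, and WT libraries at 5590 and 5502 had 100 and 81.4.

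No member passed in the libraries labelled CYP1B1-/- against WT after HDM (0 of 9, with 0% of all genes passing and 233 at an unadjusted p under 0.05, edgeR). The members ranged from -0.39 for Cdkn1a to 1.62 for Krt5, with SE of 0.44 to 0.92 and an adjusted p of 0.999 for each. Between the knockouts after HDM, 0 of 9 members and 0.00706% of all genes passed, with 4234 genes at an unadjusted p under 0.05. There, AhR-/- minus CYP1B1-/- was 1.25 for Krt18 (adjusted p = 0.105), 1.15 for Krt7 (adjusted p = 0.157) and -1.0 for Cdkn1a (adjusted p = 0.152). Without the Y-linked pair they were 1.19, 0.79 and -0.45, and with the hematopoietic covariate 0.91, 0.69 and -0.46, with no call. DESeq2 called Krt18 (adjusted p = 0.0362), and limma voom 4 members, among them Krt18, Krt7 and Cdkn1a (adjusted p = 0.0251, 0.0284 and 0.0303). Whether HDM changed a member differently in a knockout and in WT was tested with an interaction term. For both knockouts 0 of 10 members and 0% of 16639 genes passed (3050 and 382 genes had an unadjusted p under 0.05). The interaction of AhR-/- was 1.54 for Krt18 (SE 0.57, edgeR adjusted p = 0.167) and 1.39 for Krt19 (SE 0.65, edgeR adjusted p = 0.261) in edgeR. Without the pair of libraries with Y-linked reads these were 1.45 and 0.70 (adjusted p 0.390 and 0.683), and with the hematopoietic covariate 1.32 and 0.91 (adjusted p 0.276 and 0.498). With limma voom and sample weights, Krt18 and Krt19 were at 1.87 and 1.79 (adjusted p 0.000717 and 0.00329), so the call depends on the tool.

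The partners Krt18 and Krt8 were not counted in equal proportion everywhere. The ratio of Krt18 to Krt8 reads, a quantity free of library scaling and looked at after the values were seen, was 0.937, 0.939, 0.950 and 0.986 in the WT libraries after HDM. It was 1.03, 1.10, 0.970 and 1.15 in those labelled CYP1B1-/- and 2.11, 1.29, 2.31 and 1.57 in those labelled AhR-/-, with no overlap between AhR-/- and the others. At steady state it was 0.959 to 1.14 in WT, 1.12 to 1.33 in AhR-/- and 1.05 to 1.33 in CYP1B1-/-, so those groups overlapped. Adding the reads of Krt8-ps to Krt8 lowered all ratios, to 0.655 to 0.719 in WT, 0.696 to 0.826 in CYP1B1-/- and 0.936 to 1.78 in AhR-/- after HDM, which still did not overlap. The AhR-/- libraries with the largest ratios were replicates 1 and 3, of which only replicate 3 had Y-linked reads.

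Krt8 and Krt7, both type II chains, changed in ratio with state. There were 0.144 to 0.166 Krt8 reads per Krt7 read in WT at steady state and 0.284 to 0.358 after HDM. The values were 0.144 to 0.154 and 0.220 to 0.353 in AhR-/-, and 0.0879 to 0.158 and 0.389 to 0.501 in CYP1B1-/-, so no genotype overlapped between states. In AhR-/- after HDM, the libraries with Y-linked reads were the lower ones (0.232 and 0.220, against 0.341 and 0.353). Krt19 to Krt7 overlapped between states in WT, at 0.212 to 0.299 before and 0.232 to 0.294 after HDM, and in AhR-/-, at 0.238 to 0.287 and 0.223 to 0.392. In CYP1B1-/- it was 0.120 to 0.293 before and 0.301 to 0.380 after, without overlap. The ratios are given without a test.

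**Figure D4:**
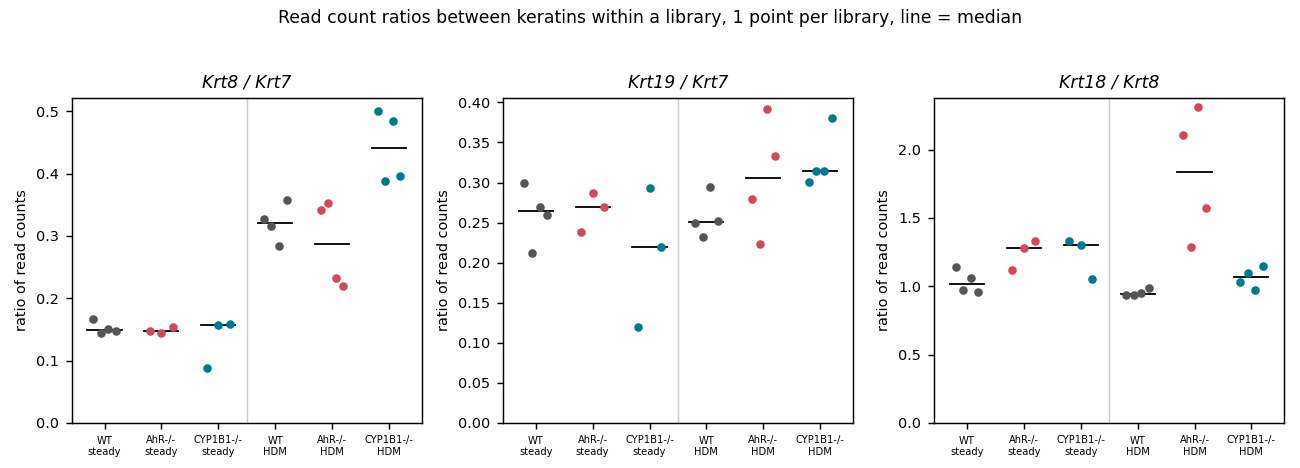
Ratios of read counts between keratins within each library, as Krt8 to Krt7, Krt19 to Krt7 and Krt18 to Krt8 on vertical axes starting at 0, by genotype and state, with a point per library and a line at the group median. Krt8 to Krt7 was higher in every HDM library than at steady state, and Krt18 to Krt8 was 1.29 or more in all 4 HDM libraries of AhR-/-, above the 1.15 reached by the other HDM libraries.

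Related genes were read from lists, here for HDM against steady state in WT, where, together with CYP1B1-/-, most members had their lowest p (4 each). Over all genes, 19.0% rose and 19.4% fell in WT, 10.6% and 10.1% in AhR-/-, and 15.5% and 17.9% in CYP1B1-/-, and the counts of the lists are to be read against these shares. Of 8 tested genes that anchor or link keratins, 6 fell and 0 rose, with a list median of -1.85 against -0.11 over all genes. Those of lowest p were Ppl (periplakin, -2.08), Pkp2 (plakophilin, -3.13) and Jup (plakoglobin, -1.78). The same list had 4 lower and 1 higher in AhR-/- and 6 lower in CYP1B1-/-. Of 21 other keratins only 9 could be tested in WT, and 2 fell, Krt10 (-1.21) and Krt12 (-2.33, at most 0.835 CPM), with 0 higher. In AhR-/- 4 rose and 2 fell and in CYP1B1-/- 3 rose and 1 fell. Krt17, a keratin of basal and stressed epithelium, did not pass in WT (1.41, adjusted p = 0.128, edgeR), at 0.0617 to 0.552 CPM before HDM and 0.304 to 1.35 after. In AhR-/- it was at 0.185 to 0.287 CPM before and at 0.455 to 2.79 after, and in CYP1B1-/- at 0.236 to 0.638 before and at 1.44 to 10.7 after.

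Among 11 tested genes of basal cells other than the members, 2 rose and 1 fell in WT, 3 and 1 in AhR-/-, and 6 and 1 in CYP1B1-/-, and the difference between genotypes was not tested. Aqp3, a water and glycerol channel, rose by 5.27 and Ngfr, a neurotrophin receptor, by 4.61, while Bcam, a laminin receptor, fell by 2.58. Of 17 genes of the transitional state, 4 rose and 7 fell. Ndrg1 (3.68) and Tnip3 (4.13) rose and Tnfrsf12a, the TWEAK receptor, fell by 2.34. In AhR-/- the count was 5 higher and 2 lower and in CYP1B1-/- 5 and 5, so the list did not move one way.

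The p53 targets around Cdkn1a were mixed, with 2 of 20 higher and 3 lower in WT. Pmaip1 (the pro-apoptotic NOXA) rose by 6.56, whereas Perp (a desmosomal protein) fell by 2.15 and Rrm2b (a ribonucleotide reductase subunit) by 1.37. Of 5 tested inhibitors of cyclin-dependent kinases, Cdkn2c (2.31) and Cdkn1b (0.83) were among 3 that rose, and Cdkn2b fell by 2.98. None of the 6 other 14-3-3 genes passed in WT, where Ywhae, Ywhag and Ywhah gave -0.59, 0.34 and 0.37 with edgeR adjusted p = 0.158, 0.413 and 0.490. Of 11 tested ligands and receptors of the EGF family, 6 fell and 0 rose in WT, among them the receptors Erbb3 (-2.22) and Egfr (-2.54) and the ligand Hbegf (-2.57), whereas 3 fell in AhR-/- and 6 in CYP1B1-/-. Early response genes rose in 8 of 12 cases and fell in 1 in WT, with Ier2 at 3.91, Fos at 3.18 and Fosb at 3.12. In AhR-/- 5 rose and 1 fell, and in CYP1B1-/- 5 rose and 3 fell. The summed list had a median of 1621 CPM before and 1622 after HDM in WT. The genes named as risen or fallen in these lists had adjusted p-values of 9.39e-06 to 0.0484 in edgeR. Hematopoietic markers rose in 13 of 16 cases and type 1 markers fell in 7 of 8 in WT, and their part in the lists was not tested.

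Across the 22 libraries, after removing the mean of each table, the genes most like Krt8 in log2 CPM were Prr15l, Cttn and Crb3 (Pearson r = 0.97 each). Those most like Krt5 were Ulk4 (0.80), Krt17 (0.79) and Stpg1 (0.78), with few counts behind them, those most like Cdkn1a were Aldoc (0.95), Chek2 (0.94) and Entpd7 (0.94), and those most like Areg were Lgi3 (0.92), Dram1 (0.91) and Mlc1 (0.90). These values describe the libraries, which share depth and cell makeup, and carry no test.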

How the data were processed

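RNA of sorted ECs was reverse-transcribed from a dT primer with template switching, amplified and tagmented. Per the labels and the study's methods, the authors demultiplexed with bcl2fastq 2.19.1, aligned to mm10 (GRCm38) with GSNAP and counted with featureCounts 2.0.0. The deposited tables hold raw counts per gene and library, without normalization, and strand and multi-mapping settings are not given in the sources used here. Of 54373 genes, 21793 protein-coding ones (GENCODE M21) were kept. Depth was 9654825 to 17878442 counts, and small counts limit Krt5, Krt14 and Trp63, and Areg in AhR-/- HDM replicates 3 and 4.

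edgeR 4.0.16 in R 4.3.3 was used (TMM, filterByExpr with a minimum count of 10, robust quasi-likelihood test, Benjamini-Hochberg adjusted p of at most 0.05). Genotypes were compared within a table with 3 groups, states and interactions over all 22 libraries with 6 groups. CPM use the TMM factors of the 22 libraries, and each within-table fit its own. Named were the 10 members, the 3 genes of lowest p per list in the comparison where most members had their lowest p (a tie, with WT taken), and the 3 genes most like Krt8, Krt5, Cdkn1a and Areg. Members and lists were chosen with earlier results of these data known. Alternatives were no filter or a minimum of 10 counts in all libraries, the likelihood ratio test, RLE, DESeq2 1.42.0, limma 3.58.1 voom with sample weights, the replicate number as a block, a covariate of 16 hematopoietic markers, no dominant predicted genes (1% or more of a library), the compared groups alone, and libraries left out. Adding Krt8-ps to Krt8, and hematopoietic sums without Csf1r, were chosen after seeing the data. The fitting script was checked on simulated counts with 200 genes changed.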

Additional observations from a re-analysis of the deposited data

Results flagged for a closer look

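In 48 sets of 4 libraries (the 10 genes and the ratios of Krt18 to Krt8 and Krt8 to Krt7 in the groups of that size), 4 had a library far from the others by Dixon's criterion, where chance flags about 1 in 20 sets, or 2.4. On the log2 CPM scale, Trp63 was at 0.83 in WT steady-state replicate 4, against 2.28 to 2.52 in the other libraries, and at 0.75 in CYP1B1-/- HDM replicate 3, against 2.01 to 2.25. Krt5 was at -3.83 in AhR-/- HDM replicate 3, against -0.11 to 0.59, and Krt14 at -3.83 in AhR-/- HDM replicate 1, against -1.24 to -0.77. The last pair of values stand for 0 counts and are set by the prior count of 1. No cause was tested.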

How the results depend on the processing

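The number of members called in the libraries labelled AhR-/- against WT after HDM was 2. It was 1 without a filter and without dominant predicted genes, 4 with DESeq2, 5 with limma voom, and 0 with the replicate block, the hematopoietic covariate, or without the pair of libraries with Y-linked reads. The 3129 genes called there became 1802, 2921, 4592, 6669, 1, 0 and 0 in the same order. Leaving out single libraries gave 0 to 3 members. Between the knockouts after HDM, 0 members became 1 with DESeq2 (2906 genes) and 4 with limma voom (4303 genes), and 0 to 2 without single libraries, and the likelihood ratio test called 2458 genes. With the hematopoietic covariate, 0 members passed in HDM against steady state of WT, AhR-/- and CYP1B1-/-, and 157, 521 and 536 genes. The Areg value in WT reversed there, to -0.31. The count in AhR-/- was 1 to 5 and in CYP1B1-/- 5 to 9 without single libraries (5 in WT throughout), and 5 in CYP1B1-/- with at least 10 counts in every library, where Krt5 and Krt14 were not tested and Krt8 did not pass (-0.89, adjusted p = 0.0613). The interaction of AhR-/- had 0 members, and 5 with limma voom (5042 genes, against 1236 with DESeq2 and 221 with the likelihood ratio test). At steady state 0 members were called under every alternative, with at most 14 genes. Beyond these the cause was not tested. RLE scaling moved the median member by 0.16 in HDM against steady state of CYP1B1-/- (single members by -0.05 to 0.19) and by at most 0.08 in the other comparisons.

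Libraries of the same replicate number did not deviate together throughout: their correlations ran from -0.56 to 0.75 after HDM (4 of 12 pairs over 0.1) and from -0.03 to 0.23 at steady state (3 of 8), so the numbers were not taken as pairs. With the replicate block, HDM against steady state called 6 members in WT, 3 in AhR-/- and 9 in CYP1B1-/-. For single genes with an unadjusted p under 0.05, 456 alternative values kept their direction and call, 63 lost and 27 gained the call. The median Krt18 to Krt8 ratio after HDM moved from 1.84 to 1.34 in AhR-/-, from 0.944 to 0.690 in WT and from 1.07 to 0.763 in CYP1B1-/- with Krt8-ps added. Krt5 and Krt14 are limited by depth.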
